A study of Saccharomyces cerevisiae with 6 samples.

Results

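The genes described here are those of glycogen synthesis and breakdown in budding yeast, Saccharomyces cerevisiae: PGM1, PGM2, UGP1, GLG1, GLG2, GSY1, GSY2, GLC3, GPH1 and GDB1. They were listed by name, with earlier results of these data known, and all 10 were measured, each by 1 probe set annotated to that gene alone, among 5349 genes tested on the array. RNA was compared between cells given zymolyase, a preparation of enzymes that breaks down wall glucan, and untreated cells, with 3 samples and 3 Affymetrix arrays in each group. The zymolyase group was kept with 30 U/ml of enzyme for 10 min at 37 °C, and the control group received no enzyme. Both groups were cultures labelled BY4743, described in the labels as a MATa/α diploid carrying his3Δ1, leu2Δ0, met15Δ0, ura3Δ0 and lys2Δ0, grown for 2 days at 25 °C in YPD, a rich glucose medium.

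Whether the control cells were also warmed is not stated in the labels, so a step to 37 °C and the enzyme cannot be told apart for any gene. Nothing in the labels says that the 3 samples of a group came from separate cultures, and the p-values then cover the spread among these 6 samples only, which may be technical. All levels are MAS5 signals in intensity units, given per array or as mean ± SD (n = 3), scaled by the authors so that every array has nearly the same trimmed mean, and they show shares of the messenger RNA rather than amounts per cell. Log2 signals of 2 arrays correlated at 0.985 to 0.987 within a group and at 0.938 to 0.947 across groups. The mating type markers went against an a/α cell on both sets of arrays. The α-type receptor gene STE3 gave 2732 ± 28.1 with zymolyase and 3035 ± 89.7 in the control, the a-type receptor gene STE2 gave 34.9 ± 7.36 with zymolyase and 48.4 ± 11.1 in the control, and HO, which is shut off in a/α diploids, gave 1033 ± 101 with zymolyase and 1214 ± 65.2 in the control. The strain is therefore called only by its label.

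Glycogen is a branched glucose polymer that yeast lays down as glucose runs out or under stress and burns when growth resumes. Phosphoglucomutase turns glucose 6-phosphate into glucose 1-phosphate, and UGP1 turns that into UDP-glucose, the sugar donor for glycogen, for trehalose and for the glucan of the wall. The self-glucosylating primers GLG1 and GLG2 start a chain, the synthases GSY1 and GSY2 lengthen it, and GLC3 adds branches. The phosphorylase GPH1 takes glucose off the chain ends and the debranching enzyme GDB1 clears the branch points.

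Of the 10 genes, 8 rose with zymolyase, 1 fell and 1 did not pass the test (limma on log2 signals, Benjamini-Hochberg adjusted p under 0.05 over all 5394 tested probe sets). Over all tested probe sets 32.6% rose and 38.9% fell, which makes 71.5% called, so that a call by itself was common on these arrays. The median log2 fold change was 0.71 over the 10 genes and -0.08 over all tested probe sets. GDB1, GSY1 and GLC3 rose at least 2-fold, as did 8.06% of all tested probe sets. For 9 of the 10 genes the zymolyase and control arrays did not overlap, against 73.3% of all tested probe sets. In these bulk samples a change in the share of cells that hold a transcript and a change in RNA per cell cannot be told apart.

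**Figure D1:**
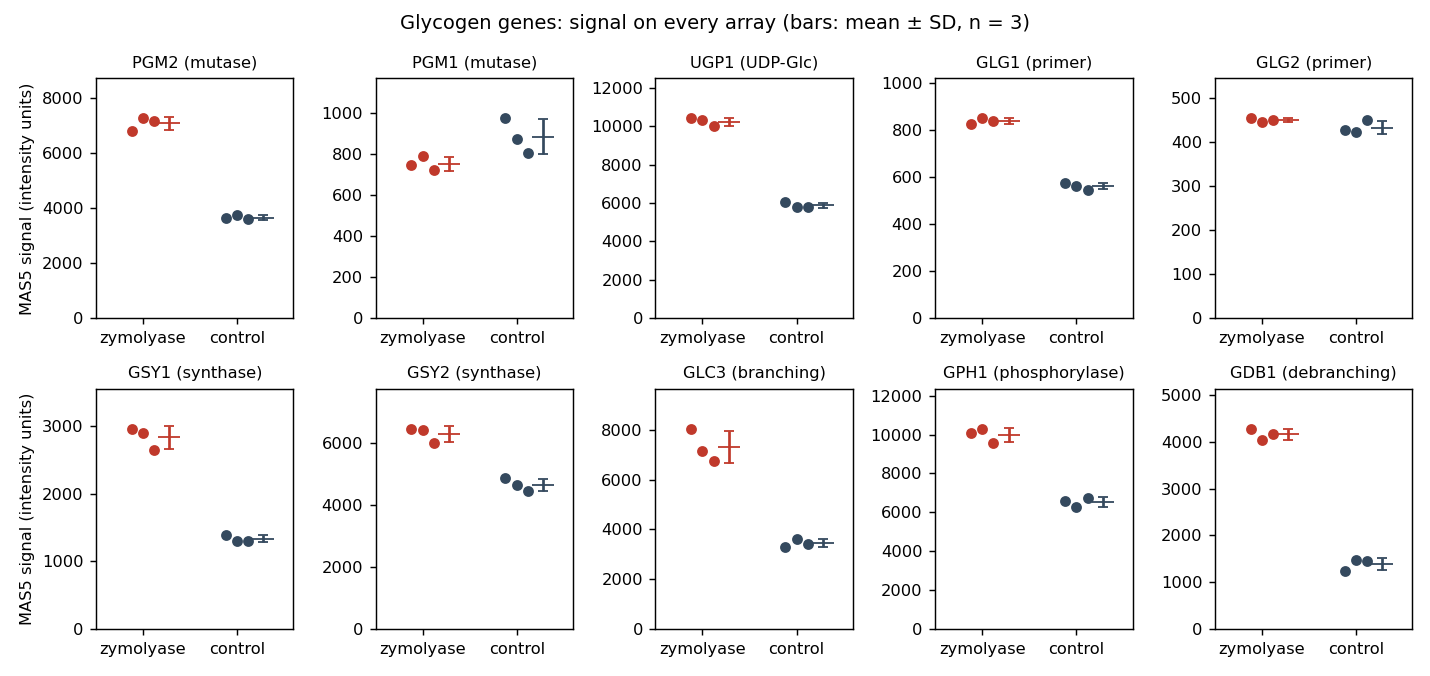
MAS5 signal of each glycogen gene on every array, with zymolyase arrays in red on the left and control arrays in dark blue on the right of each panel. Points are arrays and bars are the mean ± SD of 3 arrays. The groups are separate in 9 panels, and in the GLG2 panel they overlap.

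The supply of UDP-glucose was followed through 3 genes. PGM2 (YMR105C, probe set 1778907_at), the main phosphoglucomutase, had signals of 6824, 7267 and 7184 on the zymolyase arrays, against 3634, 3752 and 3592 on the control arrays. All zymolyase arrays lay far above all control arrays, and the fold was 1.94 (log2 fold change 0.95 ± 0.05 SE, adjusted p = 6.4e-09). PGM1 (YKL127W, probe set 1777971_at), the minor phosphoglucomutase, had signals of 749, 791 and 721 on the zymolyase arrays, against 975, 876 and 807 on the control arrays. It was the only one of the 10 that fell, to 0.85 times the control level (log2 fold change -0.23 ± 0.08 SE, adjusted p = 0.016). Its highest zymolyase signal was just under its lowest control signal, and without control replicate 1 the fall did not pass (log2 fold change -0.16, adjusted p = 0.074). UGP1 (YKL035W, probe set 1770744_at), the UDP-glucose pyrophosphorylase, had signals of 10402, 10299 and 9987 on the zymolyase arrays, against 6043, 5813 and 5768 on the control arrays. The 3 arrays of each group were close together, and the fold was 1.74 (log2 fold change 0.80 ± 0.05 SE, adjusted p = 2.3e-08).

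The primers behaved unlike each other. GLG1 (YKR058W, probe set 1776644_at) had signals of 825, 849 and 836 on the zymolyase arrays, against 575, 564 and 546 on the control arrays, which is a fold of 1.49 (log2 fold change 0.58 ± 0.06 SE, adjusted p = 2.6e-06). GLG2 (YJL137C, probe set 1772227_at) had signals of 455, 445 and 449.8 on the zymolyase arrays, against 428, 423 and 450.5 on the control arrays. These overlapped, and the change did not pass (log2 fold change 0.05 ± 0.07 SE, adjusted p = 0.52), with a 95% interval of -0.10 to 0.21 on the log2 scale.

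Chain growth and branching were represented by GSY1, GSY2 and GLC3. GSY1 (YFR015C, probe set 1773444_at), the synthase gene known as the minor one, had signals of 2959.6, 2899.7 and 2647 on the zymolyase arrays, against 1391, 1298 and 1309 on the control arrays. Every zymolyase array was well above every control array, with a fold of 2.13 (log2 fold change 1.09 ± 0.06 SE, adjusted p = 7.9e-09). GSY2 (YLR258W, probe set 1779105_at), known as the main synthase, had signals of 6446, 6419 and 5985 on the zymolyase arrays, against 4854, 4647 and 4451 on the control arrays. The groups were again separate, but the fold was 1.35 (log2 fold change 0.43 ± 0.05 SE, adjusted p = 1.2e-05). GLC3 (YEL011W, probe set 1772051_at), the branching enzyme, had signals of 8033, 7165 and 6753 on the zymolyase arrays, against 3290.1, 3624 and 3425 on the control arrays. Its zymolyase arrays were more spread than its control arrays, all were above them, and the fold was 2.12 (log2 fold change 1.08 ± 0.07 SE, adjusted p = 2.1e-08).

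Both breakdown genes rose. GPH1 (YPR160W, probe set 1779850_at), the phosphorylase, had signals of 10102, 10285 and 9578 on the zymolyase arrays, against 6573, 6277 and 6755 on the control arrays, a fold of 1.53 (log2 fold change 0.61 ± 0.05 SE, adjusted p = 4.4e-07). GDB1 (YPR184W, probe set 1769968_at), the debranching enzyme, had signals of 4274, 4037 and 4169 on the zymolyase arrays, against 1232, 1465 and 1462 on the control arrays. With a fold of 3.01 it changed furthest among the 10 (log2 fold change 1.59 ± 0.07 SE, adjusted p = 1.2e-09), and its log2 fold change stood at percentile 98.4 of all tested probe sets. The lowest control array of GDB1 was replicate 1, and its log2 fold change without that array was 1.51.

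**Figure D2:**
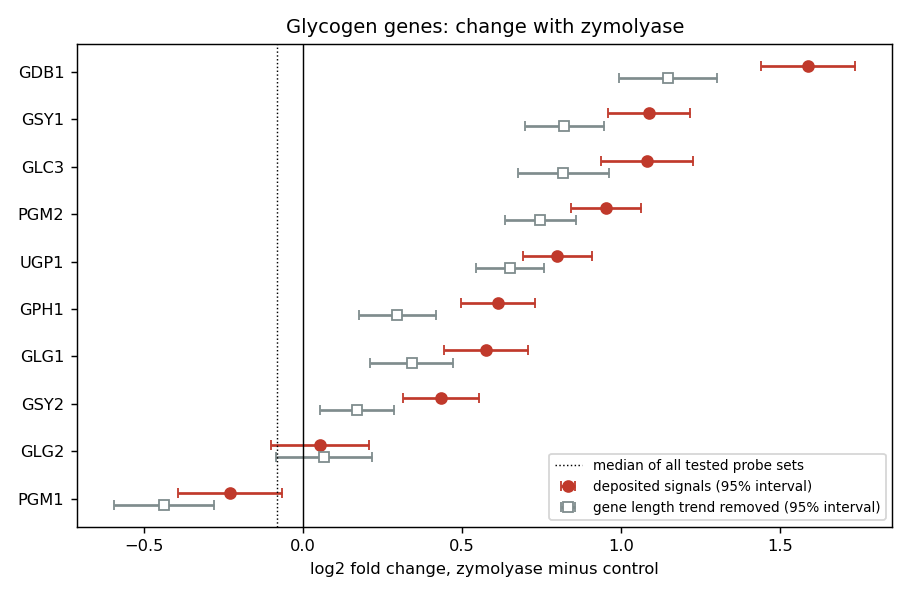
Log2 fold change of each glycogen gene, zymolyase minus control, with 95% intervals, from the deposited signals (red) and after removing the trend with gene length (grey squares). The dotted line is the median of all tested probe sets. Genes run from GDB1 at 1.59 at the top to PGM1 at -0.23 at the bottom, and the squares lie lower for all but GLG2.

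Differences in response between paired genes were tested on the log2 ratio of the pair within each array. For each of the 5 pairs compared the ratios of the zymolyase and control arrays did not overlap, and the two-sided exact permutation test over 6 arrays gave p = 0.1 (0.1 after Benjamini-Hochberg adjustment over the 5), which is the smallest this design allows and cannot reach 0.05. PGM2 gained on PGM1 by 1.18 ± 0.09 (SE) on the log2 scale, the largest of the 5. GSY2 lost signal relative to GSY1, so that the change in their ratio was -0.65 ± 0.03. GLG1 gained 0.52 ± 0.05 on GLG2. The debranching gene GDB1 gained 0.51 ± 0.08 on the branching gene GLC3, and the phosphorylase gene GPH1 gained 0.18 ± 0.06 on the synthase gene GSY2. Each of GSY1 and GSY2, GLG1 and GLG2, and PGM1 and PGM2 is a pair of related genes, and how far a probe set also reads the transcript of its partner was not tested.

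Signal changes on these arrays went with gene length. The median log2 fold change was 0.26 in the longest 25% of tested probe sets, with gene lengths over 1908 nt, and -0.40 in the shortest 25%, up to 768 nt. The 3'/5' signal ratio of control probe sets, which rises as RNA is shortened, had a higher mean on the zymolyase arrays for all 7 genes so measured, and the groups did not overlap for 5 of them, EAF5 and WBP1 being the exceptions. The mean with zymolyase was 1.07 to 1.31 times the control mean for 6 of the genes and 2.76 times for SRB4. For ACT1 the ratio was 2.33 to 2.54 on the zymolyase arrays and 1.86 to 2.18 on the control arrays. Of the glycogen genes 9 were longer than the median of 1245 nt, and 5 (GSY1, GSY2, GLC3, GPH1 and GDB1) were among the longest 25%.

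With the length trend removed, 8 glycogen genes still rose and 1 fell, against 28.8% and 40.1% of all tested probe sets (68.9% in either direction), while the sizes shrank. The median over the 10 was then 0.50, against -0.11 over all tested probe sets. GDB1, which at 4611 nt is the longest, had a log2 fold change of 1.15 (adjusted p = 3.3e-08). GSY1, GLC3, PGM2 and UGP1 were at 0.82, 0.82, 0.75 and 0.65. The smaller rises shrank most in proportion, to 0.34 for GLG1 (adjusted p = 0.00024), 0.30 for GPH1 (0.00039) and 0.17 for GSY2 (0.013). The fall of PGM1 was larger, at -0.44 (0.00015), and GLG2 was at 0.07 (0.42). GSY1 and GSY2 are nearly equal in length, as are PGM1 and PGM2, and the changes in their ratios were -0.65 and 1.18 with the trend removed. The gain of GLG1 on GLG2 was 0.28 and that of GDB1 on GLC3 0.33.

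**Figure D3:**
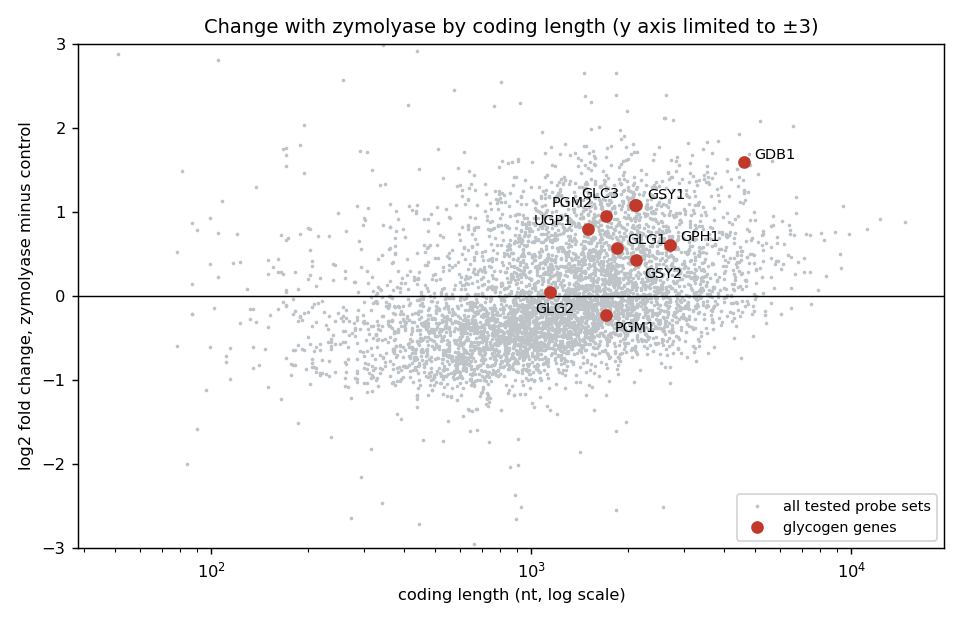
Log2 fold change (zymolyase minus control) against gene length, labelled coding length on the log axis, for all 5394 tested probe sets (grey) and the glycogen genes (red). The 3 probe sets beyond ±3 are not shown. The grey cloud is lower at short lengths, and GDB1 is the longest and furthest raised of the glycogen genes, while PGM1 lies below 0.

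A further 43 genes were read from 8 lists. Of the 17 that act on glycogen itself or on its enzymes, 8 rose and 7 fell, with a median log2 fold change of -0.10, and with the length trend removed 6 rose and 7 fell. The other 26, which handle glucose, trehalose, UDP-glucose and related sugars or activate stress genes, held 17 that rose and 3 that fell, and with the length trend removed 15 rose and 5 fell. Among all tested probe sets 32.6% rose and 38.9% fell, and with the length trend removed 28.8% rose and 40.1% fell. These shares are the background for the counts of each list below. Besides GPH1 and GDB1, 2 genes act in breakdown, and both rose. IGD1, an inhibitor of Gdb1, gave 1215 ± 40.2 with zymolyase and 491 ± 48.1 in the control (log2 fold change 1.31 ± 0.08 SE, adjusted p = 1.1e-08). It is a short gene, and the value without the length trend was 1.62 on the log2 scale. SGA1, a glucoamylase known from sporulating cells, gave 235 ± 38.3 with zymolyase and 109 ± 12.7 in the control (log2 fold change 1.11 ± 0.14 SE, adjusted p = 1.6e-05). The sporulation markers IME1, NDT80, SPS4 and SPR3 did not rise with it: 2 fell and 2 did not pass.

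The phosphatase Glc7 activates glycogen synthase when its targeting subunits bring it to glycogen. Of the 6 genes of this list 3 rose and 2 fell, against 32.6% and 38.9% of all tested probe sets. With the length trend removed 2 rose and 2 fell, against 28.8% and 40.1%. The genes called were not all the same. A gene that had risen lost its call. A dim gene not called before, at 82.5 with zymolyase and 92.8 in the control, then fell (log2 fold change -0.41, adjusted p = 0.043). The targeting subunit GAC1 gave 677, 662 and 526 on the zymolyase arrays, against 409, 413 and 389 on the control arrays (log2 fold change 0.62 ± 0.09 SE, adjusted p = 6.8e-05). The related subunit GIP2 gave 317 ± 10.4 with zymolyase and 219 ± 28.6 in the control (log2 fold change 0.54 ± 0.11 SE, adjusted p = 0.00052). The catalytic subunit GLC7 itself fell to 2958 ± 89.2 with zymolyase, against 3969 ± 280.1 in the control (log2 fold change -0.42 ± 0.06 SE, adjusted p = 3.1e-05), as did its activator GLC8 (-0.37 ± 0.05, adjusted p = 2.6e-05). The call of GLC8, a short gene, was lost with the length trend removed (adjusted p = 0.086). GAC1 was then at 0.33 (adjusted p = 0.0075), GIP2 at 0.35 (0.0096) and GLC7 at -0.56 (2.8e-06). The value of GLC7 rests on its listed gene length of 1464 nt. Whether that length includes an intron was not checked, so the larger fall may not hold at the length of the messenger RNA.

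Kinases and cyclins that act on glycogen storage went both ways. Of 9 genes 3 rose and 5 fell, against 32.6% and 38.9% of all tested probe sets. With the length trend removed 2 rose and 5 fell, against 28.8% and 40.1%. The genes called were not all the same. A gene that had risen lost its call, and a gene not called before then fell (log2 fold change -0.46, adjusted p = 0.00045). PHO85, a cyclin-dependent kinase that inhibits glycogen synthase, rose to 819 ± 45.3 with zymolyase, against 582 ± 9.36 in the control (log2 fold change 0.49 ± 0.07 SE, adjusted p = 2.0e-05). The cyclins that direct it to glycogen synthase were lower. PCL8 fell to 356 ± 9.11 with zymolyase, against 486 ± 36.4 in the control (log2 fold change -0.44 ± 0.08 SE, adjusted p = 0.00025). PCL10 had signals of 167, 299.6 and 289 on the zymolyase arrays, against 354, 380.4 and 359 on the control arrays (log2 fold change -0.58 ± 0.17 SE, adjusted p = 0.0096). The zymolyase arrays of PCL10 were uneven, with replicate 1 far below the others, and its log2 fold change without that array was -0.31 (adjusted p = 0.011). The call was lost when the spread was modelled without an intensity trend (adjusted p = 0.058). The 2 other cyclins of the list, PCL6 and PCL7, also fell, though the call of PCL7 was lost with the length trend removed (adjusted p = 0.098). SNF1, a kinase needed for glycogen accumulation, rose to 999 ± 84.9 with zymolyase, against 666 ± 35.1 in the control (log2 fold change 0.58 ± 0.07 SE, adjusted p = 1.2e-05), while its activating subunit SNF4 fell to 911 ± 55.5, against 1357 ± 81.2 in the control (log2 fold change -0.58 ± 0.07 SE, adjusted p = 5.8e-06).

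Upstream of glycogen, 3 of 4 glucose-phosphorylating genes rose. GLK1, the glucokinase, gave 11777 ± 469 with zymolyase and 4984 ± 179 in the control (log2 fold change 1.24 ± 0.05 SE, adjusted p = 1.3e-09), and its relative EMI2 gave 2594 ± 32.5 with zymolyase and 1113 ± 39.9 in the control (log2 fold change 1.22 ± 0.05 SE, adjusted p = 1.3e-09). The hexokinase gene HXK1 rose by 0.44 ± 0.05 on the log2 scale (adjusted p = 9.3e-06), and its relative HXK2 was the member that fell (-0.20 ± 0.05, adjusted p = 0.0034). Trehalose, the other storage sugar made from UDP-glucose, had 7 of 7 genes higher, with a median log2 fold change of 0.96. With the length trend removed all 7 were still higher, with a median of 0.61. TPS1, trehalose phosphate synthase, gave 8775 ± 416 with zymolyase and 3428 ± 166 in the control (log2 fold change 1.36 ± 0.06 SE, adjusted p = 1.1e-09). TSL1 and TPS2, further subunits of that complex, had log2 fold changes of 1.32 ± 0.07 and 0.98 ± 0.05. The difference between the trehalose and the glycogen genes was not tested.

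Among 5 other users of UDP-glucose, 2 rose and 1 fell, but with the length trend removed 1 rose and 2 fell. The ones that rose were the long glucan synthase genes GSC2 and FKS1. GSC2 rose by 0.95 ± 0.06 on the log2 scale, or 0.46 without the length trend (adjusted p = 1.7e-05). FKS1 rose by 0.45 ± 0.07, and without the length trend it was at -0.044 and not called (adjusted p = 0.54). ATG26, a sterol glucosyltransferase, was at -0.0016 and not called (adjusted p = 0.99), and without the length trend at -0.38 (adjusted p = 0.0089). ALG5, which makes the glucose donor of N-glycosylation, fell to 748 ± 41.7 with zymolyase, against 1289 ± 26.1 in the control (log2 fold change -0.79 ± 0.06 SE, adjusted p = 1.6e-07). In the list of further sugar phosphate conversions 2 of 5 rose and 3 did not pass, and with the length trend removed GAL1 was the only one that rose and GAL10 the only one that fell (adjusted p = 0.026). All 3 zymolyase arrays of GAL10, the epimerase gene, were below the 99th percentile of the second-species probe sets, which measure background. The other genes of this list that did not pass were dim too. 1 of them lay below that percentile on 3 zymolyase and 3 control arrays, and the other on 1 zymolyase array. Among the users of UDP-glucose, a further glucan synthase gene that did not pass lay below it on 2 zymolyase arrays and 1 control array. GAL1, galactokinase, was one that rose, with dim signals of 91.1, 90.2 and 111 on the zymolyase arrays, against 41.2, 19.8 and 43.7 on the control arrays (log2 fold change 1.56 ± 0.29 SE, adjusted p = 0.00037), and 1 control array also lay below that percentile. With 50 added to every signal its log2 fold change was 0.81. PRM15, also known as PGM3 and related to the phosphoglucomutases, rose as well, with a log2 fold change of 0.18 ± 0.07 (adjusted p = 0.042), which was -0.06 (adjusted p = 0.44) with the length trend removed. That small rise also lost its call without any 1 of 5 arrays, all but control replicate 1 (adjusted p between 0.052 and 0.15).

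Several glycogen genes are known targets of the general stress activators Msn2 and Msn4. The MSN2 transcript rose to 536 ± 35.4 with zymolyase, against 335 ± 18.6 in the control (log2 fold change 0.68 ± 0.08 SE, adjusted p = 7.6e-06), and MSN4 fell to 733 ± 100.4, against 959 ± 57.6 in the control (log2 fold change -0.39 ± 0.09 SE, adjusted p = 0.0019). GIS1, a transcription factor of the entry into stationary phase, rose by 0.71 ± 0.07 on the log2 scale (adjusted p = 1.1e-06). HOG1, the kinase of the osmotic stress pathway, rose by 0.62 ± 0.06 (adjusted p = 2.0e-06). Of the 5 genes in this list 3 rose, 1 fell and 1 did not pass, while 32.6% of all tested probe sets rose and 38.9% fell. With the length trend removed 3 rose and 1 fell. The log2 fold changes were then 0.41 for MSN2, 0.40 for GIS1, 0.55 for HOG1 and -0.63 for MSN4.

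**Figure D4:**
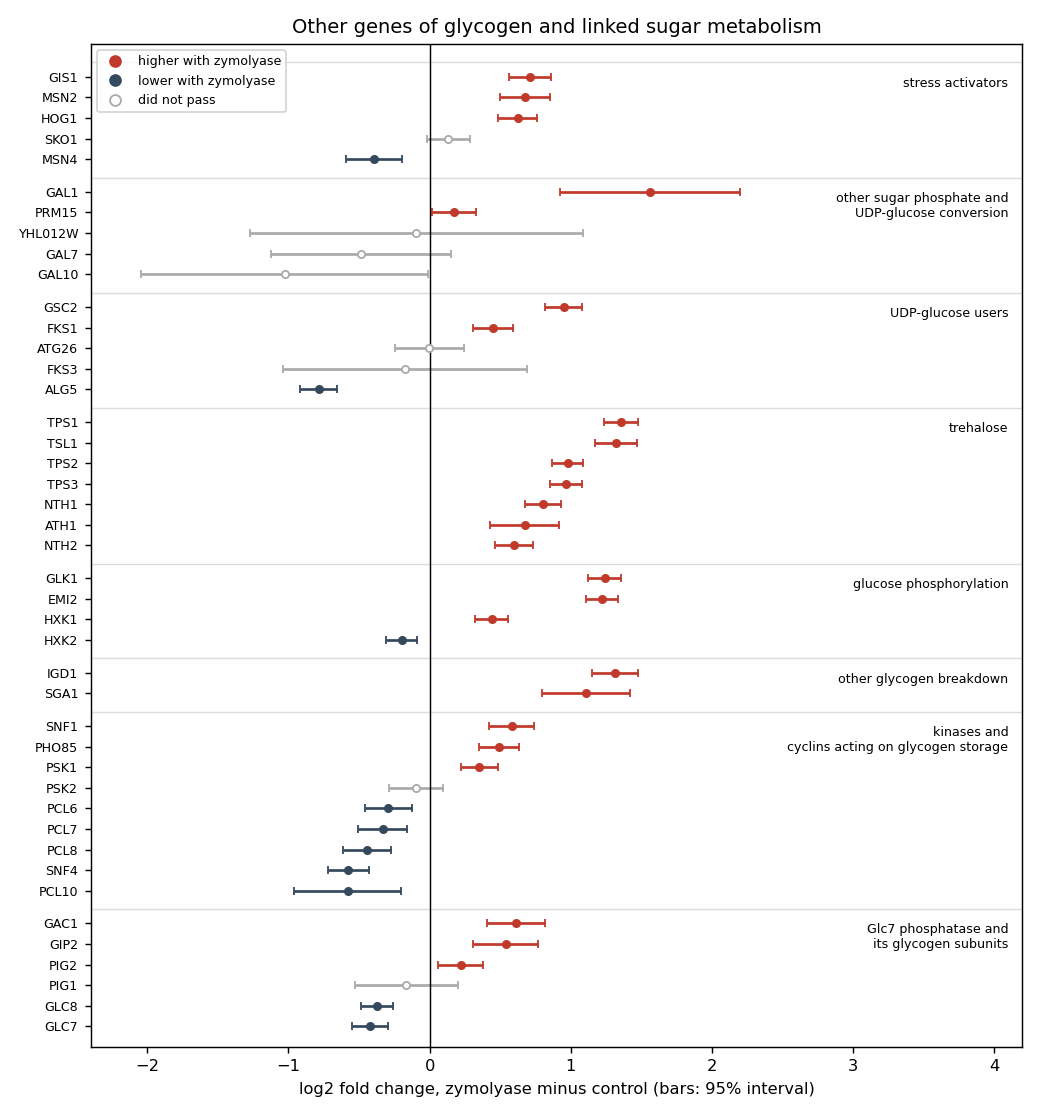
Log2 fold change (zymolyase minus control) with 95% interval for the 43 other genes, grouped by list; red points rose, dark blue points fell and open grey points did not pass. All trehalose genes lie right of 0, while the kinases and cyclins lie on both sides.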

How the data were processed

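Each of 6 samples was read on its own Affymetrix array after 3' labelling of about 500 ng of total RNA, per the labels' protocols. The deposited values are linear MAS5 signal intensities, 1 per probe set, made by the authors with a MAS5 version not given in the sources used here, per the submitters' processing notes. Mean signals after trimming 2% at each end were 500.41 to 500.43 on every array, and the deposited scaling was kept. No 2 arrays were identical. The number of arrays limits the precision. No detection calls were used.

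Of 10928 probe sets, 5498 were tied to a single budding yeast gene through the platform annotation and RefSeq's R64 genes. A further 1747 carried a gene absent from that table or several gene identifiers, were taken as the array's second species and served as background. Probe sets were tested if their 6-array mean exceeded 10.1, the 90th percentile among second-species means, 5394 in all. Every glycogen gene was at least 14.2 times its array's second-species 99th percentile on every array. The model on log2 signals was limma's (version 3.58.1, R 4.3.3; eBayes with intensity trend), zymolyase minus control. Differences between paired genes used exact permutation tests in scipy 1.17.1.

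All 10 members, the 3 largest called changes of each list without overlap between groups, and a few fixed genes are named. GLC8, PCL6, PCL7, HXK2, PRM15, ATG26, GAL10 and the neighbouring genes were named after their values were seen. Members, lists and this rule were chosen with earlier results of these data known. UGT51 and PGM3 matched as ATG26 and PRM15. Lengths are RefSeq's and cover all 5394 probe sets. Of these lengths 96.8% are multiples of 3. Whether they include introns was not checked, so they are called gene length. The length trend was removed per array by local regression (span 0.5, degree 1) on log2 length. The limma fit, without the length step, was run on simulated data. Only a small part of the probe sets was changed there, against 71.5% called here, so that run does not test the fit at such a share. The alternatives tried were adding 50 before logs, quantile normalization or median centring, a 99th percentile filter or none, a spread model without trend, a block for the replicate number, leaving out multi-transcript probe sets or each array, and the length trend. The length trend with the block was added after seeing the data. The replicate numbers are not stated to mark a shared culture, so they were not taken as pairs in the main fit. Correlations of same-numbered arrays' deviations from the group means were 0.047, 0.066 and 0.016.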

Additional observations from a re-analysis of the deposited data

How the results depend on the processing

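Over 16 alternatives, 9 of the 10 glycogen genes kept their direction and their side of the threshold under each; the exception was PGM1 without control replicate 1, when the number of genes that fell was 0. Leaving out single arrays gave 0 to 1 genes that fell, 8 that rose each time, and a median log2 fold change of 0.69 to 0.73 over the 10. That median was 0.66 with median centring, 0.50 with the length trend removed, and 0.50 with the length trend removed and the replicate block. Called probe sets were 3857 in all, 3624 to 3758 with an array left out and 3933 with the replicate number as a block, where 4 of 6 arrays correlated best with the array of their own number; that block changed no call of a named gene. The differences between paired genes kept their direction under every alternative run for them. Among 24 other genes named by rule, 22 kept direction and call; PCL10 lost its call without an intensity trend, and FKS1 turned to -0.044 with the length trend removed, alone or with the replicate block, and was then not called. Of 11 genes named after their values were seen, GLC8 and PCL7 lost their calls with the length trend removed. PRM15 turned to -0.061 there, alone or with the replicate block, and lost its call with median centring, without an intensity trend and without any 1 of 5 arrays. ATG26, not called, was called lower with the length trend removed and lay between -0.14 and 0.12 with an array left out. GAL10, not called, was called lower with 50 added, with the 99th percentile filter, with quantile normalization, without an intensity trend and with the length trend removed. The other 6 kept direction and call. The array design limits exact tests to p = 0.1.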

Other observations

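The genes next to the glycogen genes on the chromosomes changed in both directions. Of 20 neighbouring protein-coding genes in the RefSeq order, 17 were tested, of which 8 rose, 6 fell and 3 did not pass, with a median log2 fold change of -0.14, against 32.6% that rose and 38.9% that fell among all tested probe sets. With the length trend removed 7 rose and 4 fell, and the median was 0.02. Both medians were values of dim genes. The first was the gene before GPH1, at 19.2 with zymolyase and 22.3 in the control. The other was the gene before UGP1, at 10.8 and 10.4. The genes after GLG2 (5.68 and 18.9), counted as a fall before the trend was removed, and after PGM2 (20.6 and 21.9) were dim too. The second-species 99th percentile, a measure of background, was 21.0 to 31.4 on these arrays. Among the 17 the largest rise was that of DPM1, the gene before GDB1, which makes the mannose donor for protein glycosylation. Its signal was 3466 ± 325 with zymolyase and 1597 ± 56 in the control (log2 fold change 1.11 ± 0.07 SE, adjusted p = 1.9e-08), and its log2 fold change was 1.32 with the length trend removed. HSP60, a mitochondrial chaperone gene after GSY2, gave 12047 ± 454 with zymolyase and 7370.0 ± 346 in the control (log2 fold change 0.71 ± 0.06 SE, adjusted p = 1.7e-07). On the other side of GSY2, YLR257W fell to 2077 ± 74.3 with zymolyase, against 2713 ± 133 in the control (log2 fold change -0.39 ± 0.06 SE, adjusted p = 4.1e-05). UBC8, next to GLC3, fell to 830.2 ± 62 with zymolyase, against 1144 ± 16.4 in the control (log2 fold change -0.46 ± 0.07 SE, adjusted p = 3.2e-05). The difference between the neighbours and the glycogen genes was not tested.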
